A study of Homo sapiens with 12 samples.

Results

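The genes described here encode prostate membrane proteins, several of which are pursued as targets of antibodies, radioligands or engineered T cells. They were taken by symbol, with no measured value in the rule: FOLH1, STEAP1, STEAP1B, STEAP2, STEAP3, STEAP4, SLC45A3, TRPM8 and PSCA, 9 of the 60675 genes counted. Earlier results of these data were known when the genes were chosen. By their titles, RNA-Seq libraries came from LNCaP, an androgen-dependent human prostate cancer cell line, and LNCaP:C4-2 (C4-2), its androgen-independent derivative, all grown with the synthetic androgen R1881 at 1 nM. C4-2 cells received R1881 alone, namoline (50 µM), which inhibits the histone demethylase KDM1A, TCE-5002, which inhibits the histone demethylase KDM7A, or both inhibitors (combination), and LNCaP cells received R1881 alone or the combination, for 72 h, with 2 libraries in each of the 6 groups. By the study's account TCE-5002 also targets KDM7B (PHF8) and KDM2A, so its effects are not those of KDM7A alone by design. TCE-5002 is given as 100 µM in the series text and at a lower dose in the study's methods, so its dose is uncertain.

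FOLH1 encodes prostate-specific membrane antigen, a surface carboxypeptidase that trims glutamates from folates and from a neuropeptide, and the target of prostate cancer imaging and radioligand therapy. STEAP proteins span the membrane and bind heme. STEAP2, STEAP3 and STEAP4 reduce iron and copper at the cell surface or in endosomes, whereas STEAP1 lacks the domain that binds the electron donor. SLC45A3 (prostein) belongs to a sugar transporter family, TRPM8 is a cold- and menthol-gated calcium channel, and PSCA is a small lipid-anchored protein of the LY6 family. Several of these genes are known to respond to androgen.

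Total counts ran from 14791602 to 20690819 per library. The 4 libraries labelled LNCaP stood apart from C4-2 in their markers. Of 9 mesenchymal markers, the summed level was 793 to 983 CPM (counts scaled by TMM to a common library size) in the libraries labelled LNCaP against 66.1 to 104 CPM in C4-2, with VIM (vimentin, an intermediate filament of mesenchymal cells) at 609 to 732 CPM against 1.19 to 4.80 CPM. LUM was at 0 in the R1881 libraries of that label and in all C4-2 groups. Of 10 luminal markers none was at 0 in both libraries of a group. Their sum was 302 to 749 CPM in the libraries labelled LNCaP against 2118 to 3943 CPM in C4-2. KRT19 held 0 to 5 counts per library under the LNCaP label against 77 to 421 counts in C4-2. CDH1 (E-cadherin) was at 33.3 to 44.5 CPM against 580 to 1005 CPM. The luminal markers KLK3 (prostate-specific antigen) and ACP3 (prostatic acid phosphatase) went the other way with R1881 alone. KLK3 stood at 397 and 355 CPM under the LNCaP label against 206 and 228 CPM in C4-2. ACP3 stood at 7.68 and 9.92 CPM against 6.37 and 5.20 CPM. The basal markers summed to 2.64 to 13.1 CPM over all libraries, with KRT15 at 0 in those labelled LNCaP. Neuroendocrine markers summed to 21.1 to 30.7 CPM in the libraries labelled LNCaP and to 1.44 to 3.37 CPM in C4-2 with CHGB at 0. On these markers the identity of the libraries labelled LNCaP is in doubt, and every comparison between the lines is one between labels. What these differences contribute to the antigen values was not tested, and in bulk RNA fewer cells of a type and less RNA per cell cannot be told apart. The file header of LNCaP combination replicate 1 names an alignment with namoline but not TCE-5002, against its title, so values for the antigen genes that use it are also given without it.

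Positions are those of the count tables (GRCh38, Ensembl 83 gene models). STEAP1 (chr7:90154375-90164829) and STEAP2 (chr7:90167590-90238137) are neighbours on the plus strand, with STEAP4 (chr7:88270892-88306891, minus strand) further towards the start of the same arm and STEAP1B (chr7:22419444-22632925, minus strand) on the other arm. FOLH1 lies at chr11:49146635-49208670 on the minus strand, SLC45A3 at chr1:205657851-205680459 on the minus strand, STEAP3 at chr2:119223831-119265652 and TRPM8 at chr2:233917398-234019522, both on the plus strand. Reads were counted without strand, and 4 of the genes share exon bases with a gene on the opposite strand: STEAP3 shares 500 with STEAP3-AS1, PSCA 368 with JRK, STEAP4 782 with ENSG00000228113 and TRPM8 119 with ENSG00000237581.

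RefSeq start-site windows (GRCh38.p14, 250 bases before to 50 after the start) were found for 7 of the 9 genes. Those of STEAP1 (chr7:90154219-90154518, plus strand) and STEAP1B (chr7:22500139-22500438, minus strand) are shown because the genes are close copies. In the lines that follow, 5′ to 3′, capitals mark the 10 of 300 positions at which they differ.
STEAP1: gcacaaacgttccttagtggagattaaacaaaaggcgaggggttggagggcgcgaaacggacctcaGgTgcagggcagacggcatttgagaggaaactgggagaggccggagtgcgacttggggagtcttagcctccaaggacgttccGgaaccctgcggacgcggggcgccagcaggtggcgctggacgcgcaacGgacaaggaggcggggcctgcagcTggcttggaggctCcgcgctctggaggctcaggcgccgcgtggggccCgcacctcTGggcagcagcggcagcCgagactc
STEAP1B: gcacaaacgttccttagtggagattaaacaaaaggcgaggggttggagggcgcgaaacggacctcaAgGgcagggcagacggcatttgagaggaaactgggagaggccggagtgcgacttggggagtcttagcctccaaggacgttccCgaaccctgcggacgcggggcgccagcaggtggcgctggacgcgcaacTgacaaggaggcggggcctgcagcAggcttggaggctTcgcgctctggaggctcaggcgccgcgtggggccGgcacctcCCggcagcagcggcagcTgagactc
The windows were identical at 96.7% of positions. Of the 50-base words in STEAP1 transcripts (GENCODE v29), 21.4% also occur in STEAP1B, and 28.5% of those of FOLH1 occur elsewhere, almost all in FOLH1B (28.1%). Fragments in those stretches could be lost or misplaced. FOLH1B held 0 to 30 counts per library against 752 to 28417 for FOLH1. For the remaining genes other than STEAP1B (5.21%), the share was at most 1.43%.

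STEAP2 (chr7:90211490-90211789, plus strand, the first of its starts listed) and SLC45A3 (chr1:205680460-205680759, minus strand) are shown as genes that fell past the threshold under the combination, and STEAP3 (chr2:119223584-119223883, plus strand) as one that did not. Capitals mark a GC box (GGGCGG on either strand), bound by SP-type factors.
STEAP2: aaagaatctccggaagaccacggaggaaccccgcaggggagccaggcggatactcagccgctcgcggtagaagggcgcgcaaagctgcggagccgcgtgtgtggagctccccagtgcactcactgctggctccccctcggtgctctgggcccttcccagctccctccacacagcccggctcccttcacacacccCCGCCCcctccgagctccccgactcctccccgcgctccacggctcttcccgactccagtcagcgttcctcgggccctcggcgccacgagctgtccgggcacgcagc
SLC45A3: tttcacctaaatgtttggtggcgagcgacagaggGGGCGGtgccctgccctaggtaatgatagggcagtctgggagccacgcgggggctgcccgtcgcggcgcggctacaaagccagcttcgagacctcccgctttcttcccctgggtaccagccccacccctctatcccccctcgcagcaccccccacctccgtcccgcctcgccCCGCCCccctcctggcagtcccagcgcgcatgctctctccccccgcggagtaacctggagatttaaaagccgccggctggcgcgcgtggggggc
STEAP3: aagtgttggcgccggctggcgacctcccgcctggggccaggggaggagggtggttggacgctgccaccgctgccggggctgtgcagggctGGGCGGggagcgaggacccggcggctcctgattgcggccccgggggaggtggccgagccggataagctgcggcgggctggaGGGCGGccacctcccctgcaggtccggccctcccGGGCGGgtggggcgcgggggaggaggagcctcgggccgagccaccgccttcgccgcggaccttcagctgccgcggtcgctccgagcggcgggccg
These windows held 1, 2 and 3 matches. A GC box occurred in 4 of the 13 windows of the antigen genes, those shown here and that of STEAP4, against 45% of all 35116 windows. TRPM8 alone supplied 6 of the 13 windows, none with a GC box. By gene, 4 of the 7 genes with a window held one. All shares of the 13 windows given here lean on TRPM8 in this way. The window of STEAP1, which also fell past the threshold, held no match. The half-site of the androgen response element (TGTTCT, either strand) was in 1 of the 13 windows of these genes, at a downstream start of TRPM8, against 14.8% of all windows. A FOXA-type motif (TGTTTAC, either strand) was in 1 of the 13, the second start of STEAP2, against 3.42%. A TATA box (TATAAA, either strand) was in 2 of the 13, at the first start of TRPM8 and the second of STEAP2, against 11.5%. TGTTCT and TGTTTAC share their first letters (TGTT), and TGTTTAC and TTTATA, the other strand of TATAAA, share TTTA. A match is a description of the sequence only.

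In C4-2 cells with R1881 alone, FOLH1 was the most abundant of these mRNAs per exon length, at 229 ± 3.99 CPM per kilobase (SD, n = 2). STEAP2 at 138 ± 4.69, STEAP1 at 110 ± 6.97 and SLC45A3 at 69.9 ± 3.68 CPM per kilobase followed, and no libraries of neighbouring genes in this order overlapped. PSCA at 5.09 ± 0.928 and STEAP3 at 2.85 ± 0.756 CPM per kilobase were far lower. TRPM8 (0.850 ± 0.0629), STEAP4 (0.577 ± 0.0558) and STEAP1B (0.308 ± 0.0788) were each below 1 CPM per kilobase. Together the genes took 0.262% and 0.272% of all counts of these libraries.

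**Figure D1:**
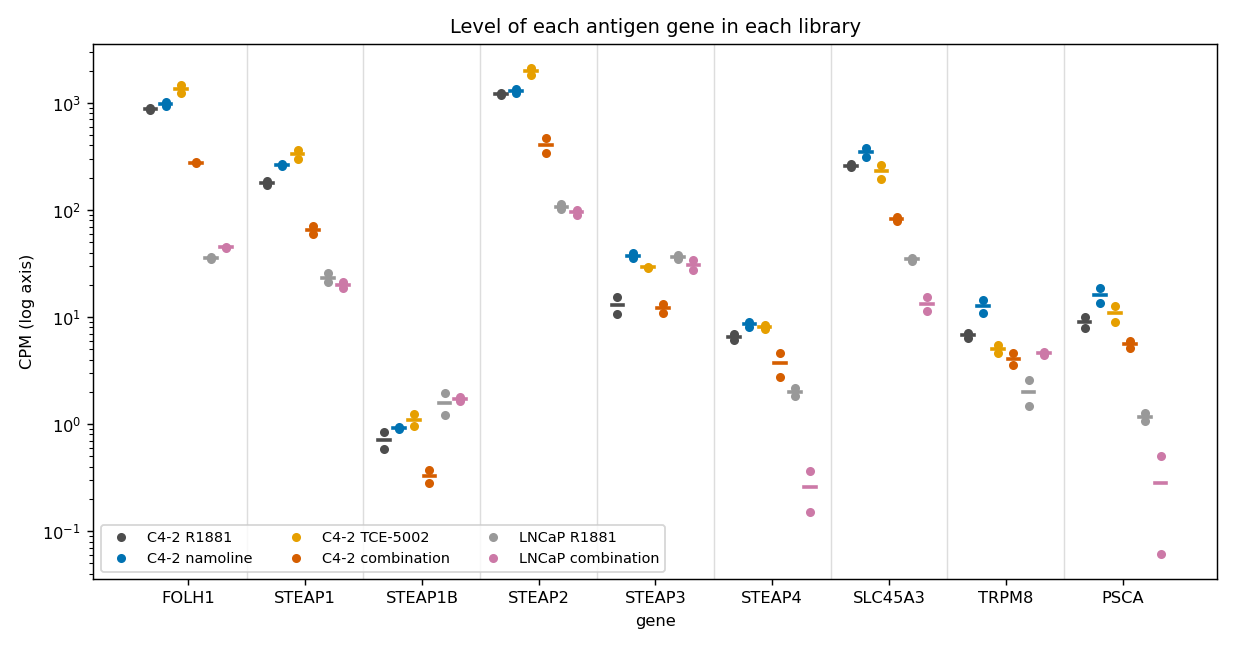
CPM (log axis) of each antigen gene in each of the 12 libraries, with 1 point per library and a bar at the mean of the 2 libraries of a group. All genes but STEAP3 lie lower in the C4-2 combination libraries than in every other C4-2 library, by little for TRPM8. STEAP3 is higher with either inhibitor alone than with R1881 alone or the combination.

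Whether the inhibitors change these mRNAs alone or only together was asked in C4-2. FOLH1, the prostate-specific membrane antigen gene, stood at 888 and 866 CPM with R1881 alone, 1010 and 928 CPM with namoline, 1472 and 1242 CPM with TCE-5002, and 276 and 278 CPM with the combination. The TCE-5002 libraries were the highest and the combination libraries the lowest, and no 2 groups overlapped. TCE-5002 raised FOLH1 1.55-fold (log2 0.63 ± 0.12, SE, edgeR quasi-likelihood adjusted p = 0.000798), short of the 2-fold asked of a call. Under the combination it fell to 31.0% of its R1881 level (log2 −1.69 ± 0.12, edgeR adjusted p = 9.58e-08). The namoline value, log2 0.13 ± 0.12, did not pass (edgeR adjusted p = 0.414).

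STEAP1, the family member targeted by antibodies and bispecific engagers, stood at 186 and 170 CPM with R1881 alone, 270 and 255 CPM with namoline, 366 and 296 CPM with TCE-5002, and 71.0 and 59.3 CPM with the combination. The groups did not overlap, in the order combination, R1881, namoline, TCE-5002. Both single inhibitors raised it below 2-fold, by log2 0.54 ± 0.13 for namoline (edgeR adjusted p = 0.00483) and 0.89 ± 0.13 for TCE-5002 (edgeR adjusted p = 0.000129). The combination lowered it to 35.9% of the R1881 level (log2 −1.48 ± 0.13, edgeR adjusted p = 9.25e-07).

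STEAP2, a metalloreductase abundant in prostate, stood at 1231 and 1173 CPM with R1881 alone, 1348 and 1234 CPM with namoline, 2101 and 1824 CPM with TCE-5002, and 465 and 339 CPM with the combination. Namoline and R1881 libraries lay within 3 CPM of each other at their nearest, and the other groups were well apart. TCE-5002 raised it 1.63-fold (log2 0.71 ± 0.14, edgeR adjusted p = 0.00167) and the combination lowered it to 32.9% of the R1881 level (log2 −1.61 ± 0.15, edgeR adjusted p = 1.07e-06).

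SLC45A3, the prostein gene, stood at 249 and 268 CPM with R1881 alone, 314 and 379 CPM with namoline, 196 and 262 CPM with TCE-5002, and 86.1 and 78.1 CPM with the combination. The TCE-5002 and R1881 libraries overlapped, and the combination libraries were lowest. It fell under the combination to 31.2% of the R1881 level (log2 −1.68 ± 0.15, edgeR adjusted p = 6.63e-07). Namoline raised it by log2 0.41 ± 0.14 (edgeR adjusted p = 0.0356), and with TCE-5002 the value was log2 −0.18 ± 0.14 (edgeR adjusted p = 0.352).

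STEAP3, the reductase of the transferrin cycle in endosomes, stood at 10.6 and 15.5 CPM with R1881 alone, 39.2 and 35.4 CPM with namoline, 28.8 and 29.6 CPM with TCE-5002, and 10.9 and 13.3 CPM with the combination. The single-inhibitor libraries were all above those of the other groups, and the combination libraries fell between the R1881 libraries. Namoline raised it 2.86-fold (log2 1.52 ± 0.17, edgeR adjusted p = 1.28e-05) and TCE-5002 2.26-fold (log2 1.18 ± 0.17, edgeR adjusted p = 0.000133). The combination value was log2 −0.12 ± 0.18 (edgeR adjusted p = 0.594). Without R1881 replicate 1 the TCE-5002 value was 0.93, under 2-fold.

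TRPM8, PSCA and STEAP4 had low levels, and under the combination each passed the adjusted p but not the 2-fold condition. TRPM8 stood at 7.07 and 6.37 CPM with R1881 alone, 10.9 and 14.4 CPM with namoline, 5.49 and 4.66 CPM with TCE-5002, and 4.60 and 3.57 CPM with the combination. Its namoline libraries were the highest, and its TCE-5002 and combination libraries lay close together, all below R1881. It rose by log2 0.89 ± 0.20 with namoline (edgeR adjusted p = 0.00315) and was at −0.74 ± 0.22 with the combination (edgeR adjusted p = 0.0115).

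PSCA (chr8:142670308-142682724, plus strand) stood at 7.82 and 10.1 CPM with R1881 alone, 13.6 and 18.6 CPM with namoline, 8.96 and 12.6 CPM with TCE-5002, and 5.96 and 5.19 CPM with the combination. TCE-5002 and R1881 libraries overlapped, namoline was highest and the combination lowest. The log2 change was 0.84 ± 0.21 with namoline (edgeR adjusted p = 0.00705) and −0.70 ± 0.23 with the combination (edgeR adjusted p = 0.0200).

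STEAP4, a reductase known for its links to inflammation and fat tissue, stood at 6.93 and 6.04 CPM with R1881 alone, 8.05 and 8.99 CPM with namoline, 7.72 and 8.46 CPM with TCE-5002, and 4.65 and 2.75 CPM with the combination. The single-inhibitor groups overlapped each other, and the combination libraries were lowest. The combination change was log2 −0.83 ± 0.24 (edgeR adjusted p = 0.00974), and it was −1.27 without combination replicate 1, past 2-fold. STEAP1B held only 5 to 24 counts per C4-2 library, with 0.284 and 0.375 CPM under the combination against 0.843 and 0.585 CPM with R1881 alone. Its value of log2 −1.16 ± 0.53 did not pass (edgeR adjusted p = 0.0799).

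Counted over the genes, 1 of 9 (STEAP3) passed the threshold of an adjusted p under 0.05 and a 2-fold change with namoline, where 12.1% of 17702 genes tested did. STEAP3 was again the 1 of 9 with TCE-5002, against a background of 11.8%. Under the combination 4 of 9 passed, all lower (FOLH1, STEAP1, STEAP2 and SLC45A3), against a background of 21.7%. On the adjusted p alone the counts were 5, 4 and 7 of 9 (35.0%, 36.5% and 50.3% of all genes), with 5 and 4 higher for the single inhibitors and 7 lower for the combination. The median log2 change over the 9 genes was 0.41 with namoline, 0.60 with TCE-5002 and −1.16 with the combination, where the median of all genes was between −0.03 and 0.00. These 3 comparisons share the R1881 libraries. With namoline, TRPM8 reached 1.06 without namoline replicate 1, and PSCA 1.02 without that library or without R1881 replicate 2. With TCE-5002, STEAP1 reached 1.05 without TCE-5002 replicate 2, so these counts moved with single libraries.

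**Figure D2:**
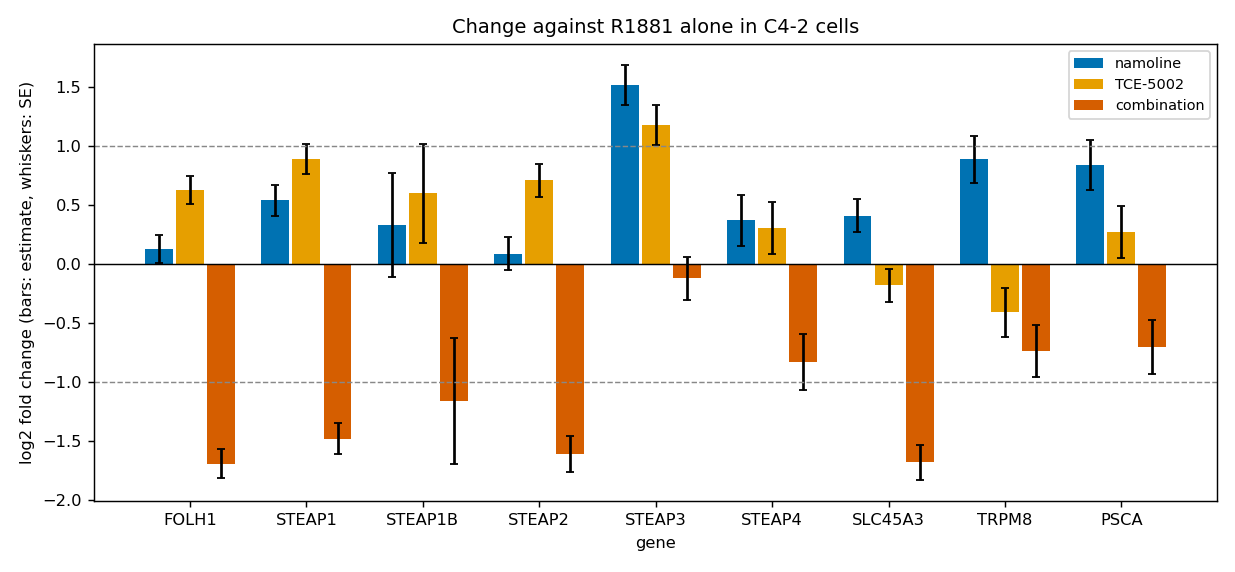
Log2 fold change against R1881 alone in C4-2 cells for each gene (bars, edgeR estimate; whiskers, SE; dashed lines, 2-fold), for namoline, TCE-5002 and the combination. Every combination bar is below 0, from −1.69 for FOLH1 to −0.12 for STEAP3, and only STEAP3 exceeds 2-fold upwards with a single inhibitor.

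Set against the single inhibitors, the combination was lower still. Against namoline, 9 of 9 genes were past the threshold and lower (background 27.5%), with log2 changes from −2.09 ± 0.15 for SLC45A3 to −1.20 ± 0.23 for STEAP4. Against TCE-5002, 7 of 9 were past it and lower (background 26.1%), from −2.37 ± 0.14 for STEAP1 and −2.32 ± 0.12 for FOLH1 to −1.14 ± 0.23 for STEAP4. The exceptions were PSCA at −0.97 ± 0.23 (edgeR adjusted p = 0.00209), under 2-fold, and TRPM8 at −0.34 ± 0.22 (edgeR adjusted p = 0.220). The STEAP4 values were −0.84 and −0.81 without combination replicate 2, and the STEAP1B call against namoline was lost on leaving out any of the 4 libraries compared. Against TCE-5002 the STEAP1B call was lost without combination replicate 1, and PSCA passed without that library (−1.08) or without TCE-5002 replicate 1 (−1.19).

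The inhibitors differed from each other mainly at TRPM8, the 1 of 9 genes past the threshold for TCE-5002 against namoline (log2 −1.30 ± 0.20, edgeR adjusted p = 0.000698, background 4.95%). FOLH1 and STEAP2 were higher with TCE-5002 than with namoline, by log2 0.50 ± 0.12 and 0.62 ± 0.14 (edgeR adjusted p = 0.00880 and 0.00912). SLC45A3 was lower with TCE-5002, at log2 −0.58 ± 0.14 (edgeR adjusted p = 0.0109). These 3 differences were under 2-fold.

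The interaction tests whether the combination differed from the product of the single-inhibitor changes. All 9 genes were past the threshold, each below the product, where 35.3% of 17702 genes passed in either direction, and the median was −2.08 against −0.01 for all genes. Multiplying the changes would have put FOLH1 at 1499 CPM, where 277 CPM (18.5%) was measured. STEAP2 was measured at 402 CPM of a product of 2108 CPM (19.1%), STEAP1 at 65.1 of 487 CPM (13.4%) and SLC45A3 at 82.1 of 307 CPM (26.8%). The interaction was log2 −2.91 ± 0.19 for STEAP1, −2.82 ± 0.24 for STEAP3, −2.45 ± 0.17 for FOLH1 and −2.40 ± 0.21 for STEAP2 (edgeR adjusted p from 2.00e-08 to 3.24e-07). The STEAP3 level under the combination lay between those of its R1881 libraries. SLC45A3, PSCA, STEAP4 and TRPM8 had values of −1.91 ± 0.20, −1.81 ± 0.31, −1.51 ± 0.32 and −1.23 ± 0.30. STEAP1B, at −2.08 ± 0.67 (edgeR adjusted p = 0.0162), lost its call without R1881 replicate 2, namoline replicate 1 or combination replicate 1.

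**Figure D3:**
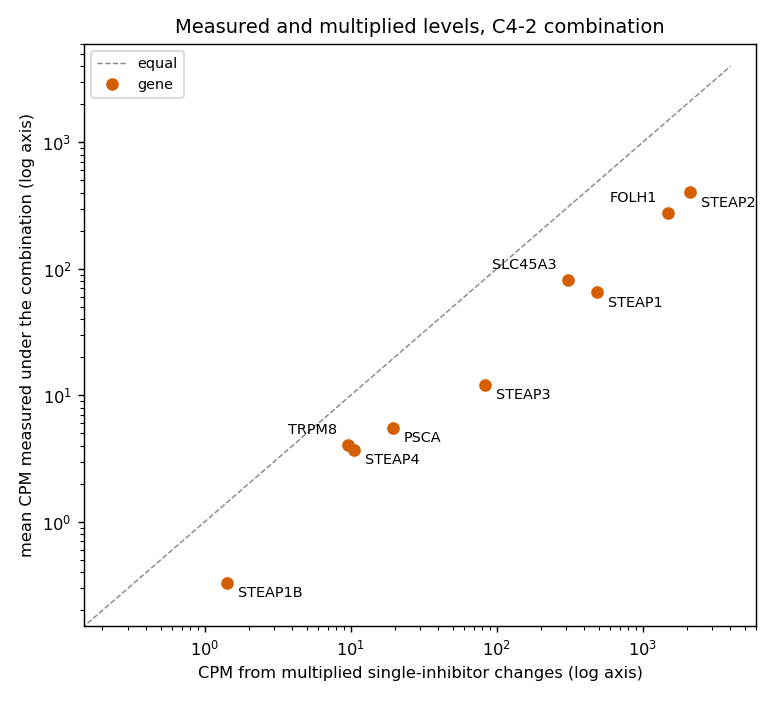
Mean CPM measured under the combination in C4-2 cells (y, log axis) against the CPM that multiplying the single-inhibitor changes would give (x, log axis), 1 point per gene, with the dashed line marking equality. All 9 points lie below the line, from 13.4% of the product for STEAP1 to 42.5% for TRPM8.

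The size of the antigen mRNA pool differed between the C4-2 groups more than the shares held by FOLH1, STEAP2 and STEAP1. Summed over the 9 genes, the level was 549 and 564 CPM per kilobase with R1881 alone, 665 and 689 with namoline, 803 and 918 with TCE-5002, and 176 and 199 with the combination. Within it FOLH1 held 36.2% to 41.9%, STEAP2 21.3% to 26.8% and STEAP1 19.1% to 24.6% in all 8 C4-2 libraries. SLC45A3 held 5.76% and 8.81% with TCE-5002 and 11.7% to 15.4% in the other C4-2 libraries. STEAP2 over STEAP1, per kilobase, was 1.23 and 1.28 with R1881 alone, 0.932 and 0.903 with namoline, 1.07 and 1.15 with TCE-5002, and 1.22 and 1.06 with the combination. The pool of the libraries labelled LNCaP was 43.8 to 58.1 CPM per kilobase, and STEAP3 held 13.6% to 15.1% of it against 0.411% to 1.65% in C4-2.

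**Figure D4:**
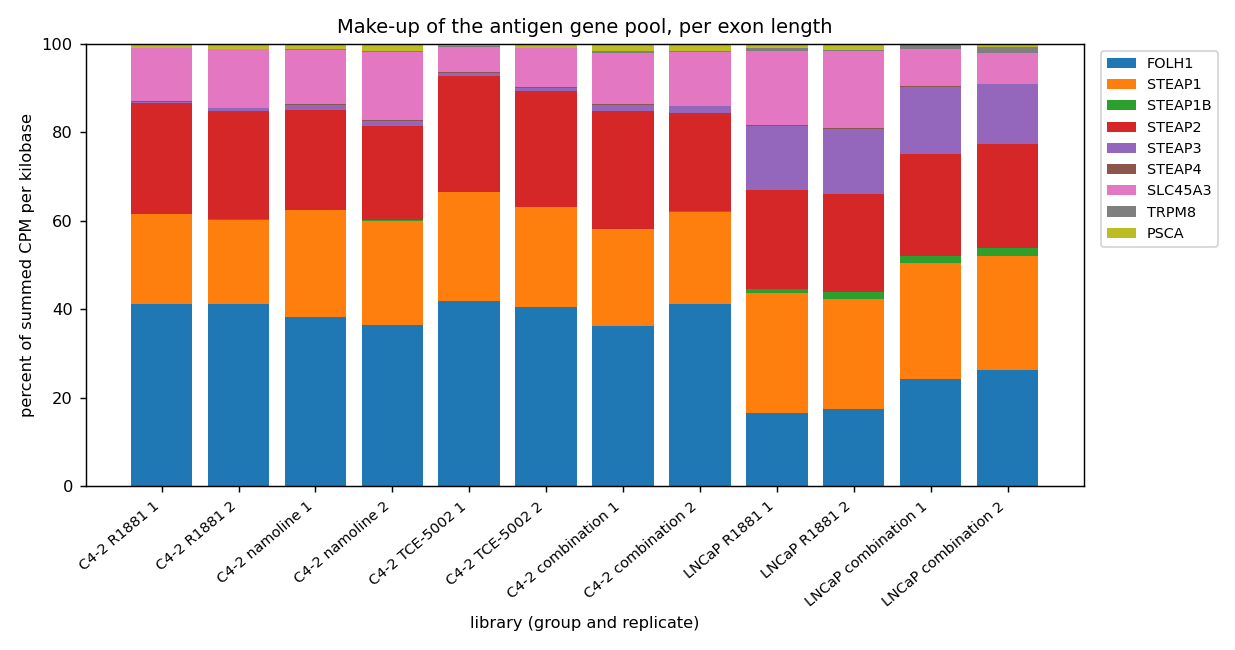
Percent of the summed CPM per kilobase held by each antigen gene in each library (stacked bars, 1 per library). FOLH1 holds 36.2% to 41.9% in C4-2 and 16.5% to 26.2% in the libraries labelled LNCaP, where the STEAP3 share is 13.6% to 15.1%.

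Whether the lines differ at baseline was asked with R1881 alone. All 9 genes were past the threshold, 7 lower and 2 higher in the libraries labelled LNCaP, where 50.5% of 19763 genes passed. FOLH1 stood at 36.7 and 35.0 CPM, 24.9-fold below C4-2 (log2 −4.64 ± 0.09, edgeR adjusted p = 1.14e-21). STEAP2 stood at 114 and 101 CPM, 11.4-fold below, and STEAP1, PSCA and SLC45A3 were 7.79-, 7.71- and 7.61-fold below C4-2. The higher genes were STEAP3, at 37.8 and 34.8 CPM (log2 1.47 ± 0.15), and STEAP1B, at 1.21 and 1.96 CPM (log2 1.08 ± 0.42), whose value was 0.73 without LNCaP R1881 replicate 2 and 0.86 without C4-2 R1881 replicate 2. Of 13 other androgen-induced genes 9 were lower and 0 higher there (median −1.60), and of 10 luminal markers 8 were lower and 0 higher (median −2.58). KLK3, the androgen-induced gene of prostate-specific antigen, went the other way, at 397 and 355 CPM against 206 and 228 CPM in C4-2 (log2 0.77 ± 0.13). So did ACP3, which like KLK3 is on both lists (log2 0.56 ± 0.22, edgeR adjusted p = 0.0221). Both differences were under 2-fold. Line cannot be told apart from culture or library handling, and the marker differences given above move with this comparison.

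The combination was also given to the cells labelled LNCaP, where 4 of 9 genes passed the threshold, 3 lower and 1 higher (background 18.7% of 17565 genes). SLC45A3 stood at 35.9 and 33.4 CPM with R1881 alone and 15.3 and 11.4 CPM with the combination, with no overlap (log2 −1.33 ± 0.14, edgeR adjusted p = 2.33e-09). STEAP4 fell from 47 and 40 counts to 6 and 3 counts (log2 −2.91 ± 0.54, edgeR adjusted p = 2.36e-05), and PSCA from 23 and 28 counts to 1 and 10 counts (log2 −1.89 ± 0.60, edgeR adjusted p = 0.00789). TRPM8 rose, from 2.56 and 1.46 CPM to 4.42 and 4.72 CPM (log2 1.25 ± 0.29, edgeR adjusted p = 0.000532). Without the library whose header names namoline only, SLC45A3 was −1.55, STEAP4 −3.61 and TRPM8 1.29, all still past the threshold, and PSCA was −1.14 and not. TRPM8 was 0.89 without LNCaP R1881 replicate 2, a library without which the PSCA call was also lost (−1.77). PSCA lost its call with a GC correction too (−1.40).

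Under the LNCaP label, FOLH1 stood at 45.5 and 43.8 CPM with the combination, above both R1881 libraries (log2 0.37 ± 0.12, edgeR adjusted p = 0.00696), and at 0.34 without the header-mismatched library. STEAP1 (21.1 and 18.5 CPM) and STEAP2 (99.5 and 89.7 CPM) had values of log2 −0.18 ± 0.14 and −0.13 ± 0.11, and neither passed (edgeR adjusted p = 0.281 and 0.315). STEAP3 and STEAP1B were at −0.19 ± 0.13 and 0.17 ± 0.38 (edgeR adjusted p = 0.201 and 0.728). Without the header-mismatched library these values were −0.28 for STEAP1, −0.21 for STEAP2, −0.36 for STEAP3 and 0.22 for STEAP1B, none past the threshold. The median over the 9 genes was −0.18, against 0.00 for all genes.

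The combination effect in C4-2 minus that under the LNCaP label was past the threshold for 5 of 9 genes, 4 negative and 1 positive (background 25.3% of 19763 genes). It was log2 −2.12 ± 0.12 for FOLH1 (edgeR adjusted p = 2.66e-12), −2.04 ± 0.35 for TRPM8 (edgeR adjusted p = 4.01e-05), −1.53 ± 0.16 for STEAP2 (edgeR adjusted p = 4.80e-08) and −1.34 ± 0.16 for STEAP1 (edgeR adjusted p = 3.54e-07). STEAP4 differed the other way, at 2.04 ± 0.58 (edgeR adjusted p = 0.00542), on 3 and 6 counts in the LNCaP combination libraries, and at 1.5 it was no longer called without LNCaP combination replicate 2. SLC45A3, lower in both lines, differed by −0.40 ± 0.16 (edgeR adjusted p = 0.0387), under 2-fold. PSCA was at 1.13 ± 0.59 (edgeR adjusted p = 0.120), on 1 and 10 counts in the LNCaP combination libraries. It was at 3.33 without LNCaP combination replicate 2, which leaves only the header-mismatched library, with 1 count. Without the header-mismatched library the values were −2.11 for FOLH1, −2.11 for TRPM8, −1.47 for STEAP2, −1.27 for STEAP1 and 2.71 for STEAP4, all past the threshold, and −0.20 for SLC45A3 and 0.38 for PSCA, which were not. STEAP3 and STEAP1B, at 0.03 ± 0.22 and −1.38 ± 0.68 (edgeR adjusted p = 0.954 and 0.102), were at 0.17 and −1.46 without it.

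**Figure D5:**
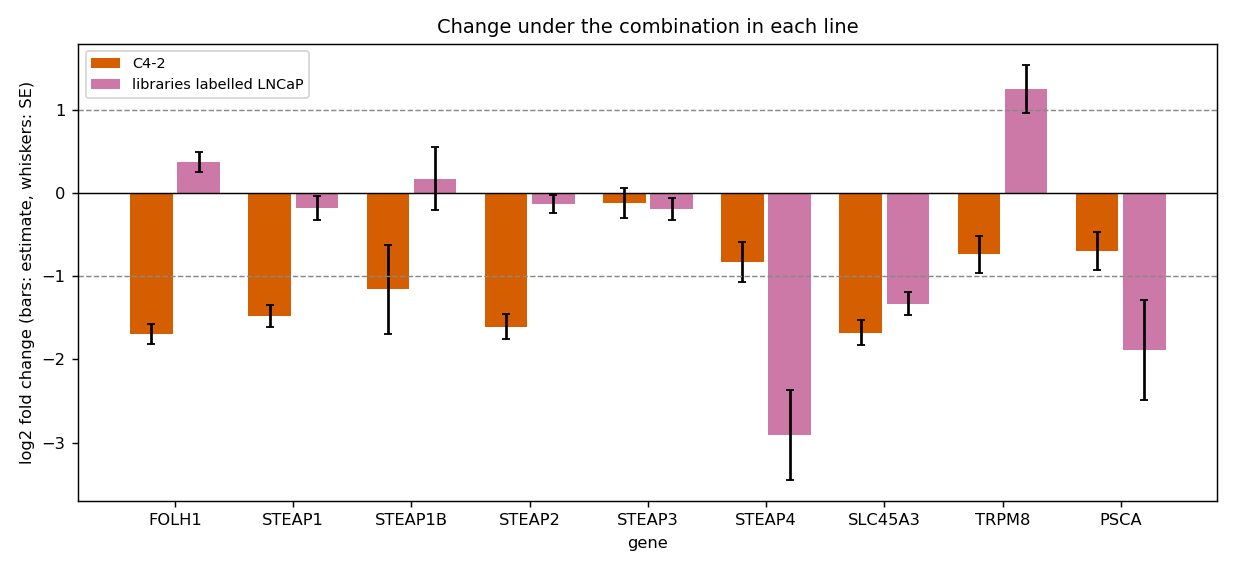
Log2 fold change under the combination against R1881 alone (bars, edgeR estimate; whiskers, SE; dashed lines, 2-fold) for C4-2 and for LNCaP as labelled. FOLH1 is at −1.69 in C4-2 and 0.37 under the LNCaP label, TRPM8 at −0.74 and 1.25, and SLC45A3 is below −1 in both.

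The antigen genes were set beside other genes known to be androgen-induced. Of 13 such genes, 8 fell and 0 rose past the threshold in C4-2 under the combination, with a median log2 change of −1.26 against −0.03 for all genes, of which 21.7% passed in either direction. With namoline alone 2 of 13 rose and 1 fell, and with TCE-5002 alone 3 rose and 0 fell (backgrounds 12.1% and 11.8%). KLK3 stood at 206 and 228 CPM with R1881 alone and 167 and 217 CPM with namoline. Its namoline change, log2 −0.19 ± 0.15, did not pass (edgeR adjusted p = 0.342). KLK3 was at 404 and 485 CPM with TCE-5002 and 54.1 and 42.6 CPM with the combination, a change of −2.19 ± 0.16 for the latter. ACP3 (prostatic acid phosphatase), CAMKK2 (a calcium-dependent kinase) and KLK2 fell, with log2 changes of −1.70, −1.49 and −1.41. TMPRSS2, a surface protease, was raised by both single inhibitors (log2 1.03 ± 0.12 with namoline and 1.76 ± 0.12 with TCE-5002) and was at −0.86 ± 0.12 with the combination. In the interaction 11 of these 13 were past the threshold, all negative, where 35.3% of all genes passed in either direction. In the libraries labelled LNCaP 5 of 13 fell (background 18.7%), KLK3 among them at −1.75 ± 0.13. Without the header-mismatched library KLK3 was at −2.07.

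Of other surface antigens pursued in carcinomas, 18 of 22 were tested, and 4 fell and 1 rose under the combination in C4-2, with a median of −0.49. That share is near the 21.7% of all genes. MET (the receptor of hepatocyte growth factor) and ALCAM (an adhesion molecule) fell, with log2 changes of −1.97 and −1.31, and L1CAM, a neural adhesion molecule, rose by 1.29 ± 0.31. With TCE-5002 alone 5 of 18 rose and 0 fell, where 11.8% of all genes passed in either direction.

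Of 13 tested of 19 sequence relatives, 3 fell and 1 rose under the combination, with a median of −0.64, beside 21.7% of all genes. NAALADL2 and NAALAD2 are relatives of FOLH1. NAALADL2 fell from 16.2 and 13.8 CPM to 4.82 and 3.57 CPM (log2 −1.86 ± 0.21), and NAALAD2, at a mean of 0.267 CPM with R1881 alone and 1.43 CPM with the combination, rose by 2.23 ± 0.56. TRPM5, a relative of TRPM8, and SLC45A1, a relative of SLC45A3, fell, with log2 changes of −2.16 and −1.16, both from under 4 CPM.

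Of the genes that handle folate, beside FOLH1, 10 of 12 were tested, and 2 fell and 1 rose under the combination in C4-2, with a median of −0.14, beside 21.7% of all genes. GGH, which removes glutamates from folates in lysosomes, fell by 1.02 on the log2 scale. ALDH1L1, which oxidises formyl-tetrahydrofolate, rose from 10 and 6 counts to 111 and 128 counts (log2 3.99 ± 0.34).

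Of the genes of iron and copper transport beside the STEAP reductases, 10 of 12 were tested, and 2 rose and 0 fell under the combination, with a median of −0.19, beside 21.7% of all genes. These were the ferritin chains, which store iron. FTH1 rose from 650 and 855 CPM to 5794 and 6175 CPM (log2 2.97 ± 0.17), and FTL from 278 and 307 CPM to 1280 and 1358 CPM (log2 2.15 ± 0.14). FTH1 rose also with namoline (log2 1.33 ± 0.16) and TCE-5002 (1.05 ± 0.16). STEAP3 rose past the threshold with the single inhibitors only, whereas the ferritin chains were highest with the combination.

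Among luminal markers 4 of 10 fell and 0 rose past the threshold under the combination in C4-2, with a median of −0.75, beside 21.7% of all genes. KLK3 and ACP3 are given above, and FOXA1, a pioneer factor of luminal cells, and KRT19 fell, with log2 changes of −2.11 and −1.30. Among the other luminal markers, KRT8 was at 0.56 ± 0.12 and KRT18 at 0.14 ± 0.11. TMPRSS2 and CDH1 were lower by less than 2-fold, at −0.86 ± 0.12 and −0.64 ± 0.11 (edgeR adjusted p = 4.52e-05 and 0.00024). Of 5 mesenchymal markers tested, ZEB1 rose from a mean of 0.425 to 5.65 CPM, FN1 fell, with a log2 change of −1.58, and VIM fell from a mean of 2.45 to 1.25 CPM. The part of these changes in the antigen values was not tested.

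The genes next to STEAP1 and STEAP2 were looked at by position, after the values of the antigen genes were known. CFAP69 at chr7:90245174-90311063, GTPBP10 at chr7:90335223-90391455 and CLDN12 at chr7:90383721-90513402 are the next protein-coding genes. Under the combination in C4-2 their log2 changes were 0.48 ± 0.16, −0.06 ± 0.12 and 0.56 ± 0.11, against −1.48 ± 0.13 for STEAP1 and −1.61 ± 0.15 for STEAP2. CFAP69, a cilium protein, rose with TCE-5002, from a mean of 13.4 to 44.9 CPM (log2 1.75 ± 0.15).

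The antigen genes differed in which other genes had the most similar pattern over the 8 C4-2 libraries, which are 4 groups of 2 and share library and depth across genes. By Pearson correlation of log2(CPM + 1) among 9574 protein-coding genes, FOLH1 was nearest to EBPL (r = 0.998), SLAIN1 (0.997) and DDAH1 (0.996). STEAP1 was nearest to PRORP (0.998), the drug and nucleotide exporter ABCC4 (0.998) and FAM162A (0.996), and STEAP2 to BCKDHB (0.995), the semaphorin SEMA3E (0.995) and ANK3 (0.994). These patterns peaked with TCE-5002, ABCC4 for example at means of 716, 931, 1129 and 291 CPM with R1881, namoline, TCE-5002 and the combination. SLC45A3 was nearest to NDST1 (0.994), KIAA1217 (0.993) and the metalloprotease MMP15 (0.992), which peaked with namoline.

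TRPM8 was nearest to the cyclin CCNA2 (0.987), SHCBP1 (0.984) and ALDH1A1 (0.984), and PSCA to NACC1 (0.991), SREBF1 (0.990), a regulator of lipid synthesis, and CLN6 (0.983). STEAP3 was nearest to NAV1 (0.986), MRM1 (0.984) and the chloride channel CLCN2 (0.983), and STEAP4 to BICD1 (0.987), FHDC1 (0.979) and SMYD2 (0.968). By Spearman rank BICD1 and SMYD2 stood only 1121st and 1341st for STEAP4. BCKDHB stood 256th for STEAP2 and SLAIN1 137th for FOLH1, and the other genes named here stood 67th or nearer. Between the antigen genes, r was 0.98 to 0.99 among FOLH1, STEAP1 and STEAP2, 0.83 to 0.85 for SLC45A3 with those genes, and 0.43 to 0.53 for TRPM8 with them.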

How the data were processed

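Polyadenylated RNA of 12 libraries was sequenced in paired ends, and the study describes the 2 libraries per group as biological replicates. The deposited files hold fragment counts per gene, which per the file headers the authors made with featureCounts 1.5.0-p1 (Ensembl annotation 83, GRCh38, no strand option) after trimming with Trim Galore and alignment with STAR, without normalisation. Groups came from the titles, because the treatment field describes siRNA work that does not match them.

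Genes were filtered with filterByExpr, libraries scaled by TMM, and contrasts tested with edgeR 4.0.16 (limma 3.58.1, R 4.3.3), quasi-likelihood, adjusted by Benjamini-Hochberg over every gene in the fit. The 8 C4-2 libraries were fitted together (17702 genes), the 4 libraries labelled LNCaP alone (17565), and the 8 libraries with R1881 or the combination together for the lines (19763). The threshold was an adjusted p under 0.05 together with a log2 change of 1 or more in either direction. SE was the size of the log2 change divided by the root of F. CPM are scaled by TMM over the 12 libraries, given as mean ± SD, and CPM per kilobase used the exon length in the count tables. With 2 libraries per group, the spread of 1 gene leans on that of all others. The main edgeR fit of each comparison was first tested on simulated counts, and the alternative settings and other steps were not.

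The antigen genes and the lists were chosen with earlier results of these data known. The named genes were the 9 antigen genes, KLK3 and TMPRSS2, the 3 protein-coding genes with the highest correlation to each antigen gene with a mean of at least 1 CPM (among genes with at least 10 CPM), and from each list up to 4 genes past the threshold with the greatest change under the combination in C4-2. VIM, CDH1, KRT8, KRT18, LUM, KRT15, CHGB, FOLH1B, CFAP69, GTPBP10 and CLDN12 were named outside this rule. Some genes the rule covers are not reported here. Alternatives were RLE scaling, no filter, DESeq2 1.42.0, a replicate block, a GC correction, both together, all 12 libraries in 1 fit, only the 4 libraries compared, the adjusted p alone, and leaving out each library.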

Additional observations from a re-analysis of the deposited data

Results flagged for a closer look

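Of the 9 antigen genes, 5 had a combination effect that differed between the lines by the test of the difference itself (edgeR, past the threshold). As log2 changes in C4-2 minus those in the libraries labelled LNCaP, these were −2.12 for FOLH1, −2.04 for TRPM8, −1.53 for STEAP2, −1.34 for STEAP1 and 2.04 for STEAP4. The STEAP4 value rests on 6 and 3 counts in the LNCaP combination libraries. The line labels go with large marker differences, whose part in these values was not tested. Groups of 2 libraries are too small for a test of single outlying libraries.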

How the results depend on the processing

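Of 90 log2 fold changes (9 genes in 10 comparisons), all 90 kept their direction and their side of the threshold under RLE scaling, without the filter and with all 12 libraries in 1 fit, as did 54 of 54 with only the 4 libraries compared. Under DESeq2, 85 did and 5 lost their call. These were PSCA for the LNCaP combination and STEAP1B for the combination against each single inhibitor, for the interaction and for the lines at baseline.

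The labels give same-numbered replicates no shared culture or day, and 2 numbers per group cannot settle whether they pair. Their deviations from the group means correlated at 0.145 to 0.475 in 5 of the 6 pairs of C4-2 groups, at −0.037 in the other and at 0.068 between the LNCaP groups. Between a C4-2 group and an LNCaP group the values ran from −0.544 to −0.058, so values of similar size also arose across the lines. With the replicate block all 90 kept their direction and side, and the counts stayed at 1, 1 and 4 for the single inhibitors and for the combination of C4-2.

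On the adjusted p alone the counts were 5, 4 and 7 for these comparisons, and 4 for TCE-5002 against namoline. With the GC correction 0 genes passed for TCE-5002, where STEAP3 lost its call at 1.00, while the block with GC correction left 1. PSCA for the LNCaP combination also lost its call with the GC correction, at −1.40. With GC correction, alone and with the block, PSCA turned to −0.08 for TCE-5002, STEAP1B to −0.04 and −0.03 and STEAP3 to 0.02 for the LNCaP combination, and STEAP3 to −0.19 for the difference between the lines. None of these turned values had passed the test. The cause was not tested.

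Leaving out each library in turn, the counts ran from 1 to 3 for namoline, from 0 to 2 for TCE-5002 and from 2 to 4 for the LNCaP combination. Values that changed sign were STEAP2 with namoline (−0.00 to 0.14), SLC45A3 with TCE-5002 (−0.39 to 0.01), STEAP3 with the C4-2 combination (−0.38 to 0.15), STEAP4 for TCE-5002 against namoline (−0.12 to 0.04), STEAP1B with the LNCaP combination (−0.14 to 0.55) and STEAP3 between the lines (−0.24 to 0.29). A group left with 1 library was assumed to vary like the others. Depth limits STEAP1B in all libraries, and STEAP4 and PSCA in the LNCaP combination libraries.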
